A study of Mus musculus with 3 samples.

Results

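The genes of MHC class II antigen presentation were followed here through the leukocytes of the mouse aorta. They are 9 of the 32285 genes in the count table, taken by their symbols: H2-Aa, H2-Ab1 and H2-Eb1, which encode chains of the class II molecules themselves, Cd74, H2-DMa, H2-DMb1, H2-DMb2, Ciita and Cd86. All 9 identifiers in the table matched the mouse annotation. Beside them stand 2 of the 75 surface antibodies, IAIE, which binds the class II molecules I-A and I-E, and CD86.

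Class II molecules present peptides from the endosomal pathway to CD4+ T cells, and are made constitutively by dendritic cells and B cells and in a regulated way by macrophages. The invariant chain, Cd74, occupies the groove of newly made class II molecules and guides them to the endosome. There H2-DM, a heterodimer of the H2-DMa chain with an H2-DMb chain, exchanges the remnant of Cd74 for a peptide. Ciita is the coactivator that class II promoters need, and Cd86 is the costimulatory ligand that CD28 on T cells binds beside the presented peptide. Mice on a C57BL/6 background lack a working I-E alpha chain gene, so that I-A is the class II molecule at their surface.

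The cells were viable CD45+ leukocytes of 10 digested aortas, profiled by CITE-seq, in which transcripts and DNA-tagged antibodies are counted in the same cell. Of these mice, 5 were Jak2WT controls (mice 1 to 5) and 5 were Jak2V617F Myel (mice 6 to 10), on a C57BL/6 background, with controls matched to littermates for age and sex. Jak2V617F Myel mice carried a Jak2V617F Flex/WT allele, an activating form of the kinase Jak2, switched on by LysM-Cre, whose lysozyme M promoter works mainly in myeloid cells, so that B cells and many dendritic cells need not carry the mutation. Mice 7 and 9 had an aortic aneurysm, and mice 6, 8 and 10 had dilation without aneurysm. No mouse was treated, and neither the age of these mice nor whether the Jak2WT mice carried LysM-Cre is given in the sources used here. Circulating leukocytes had been labelled by an intravenous anti-CD45.2 antibody and were left out of the sort, the mice were told apart by 10 hashtag antibodies, and all cells went through 1 pooled sort and 1 run, set to about equal numbers of cells for each genotype.

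In all, 4871 of 8471 barcodes were kept as single cells, at 112 to 811 cells a mouse and a median of 5442 to 10775 UMIs (unique molecular identifiers, that is, counted transcripts) a mouse. Cells were clustered without the class II genes and the related genes listed here, and named by marker genes. They included 654 resident macrophages, made up of 294 Res-MGL1hi, 233 Res-Txniphi and 127 Res-S100hi cells, 467 IEG+ macrophages (high in immediate early genes), 485 Ccr2+ inflammatory macrophages, 400 cDC2, 82 cDC1 and 560 B cells. Of the Ccr2+ inflammatory macrophages, 239 were from mouse 7 and 190 from mouse 9, the mice with aneurysm. A level is given in CPM, the counts of a gene scaled to a common total of UMIs over the summed cells of a mouse and population, for mice with at least 10 such cells. Antibody levels are mean counts per cell. Jak2WT mouse 4, with the fewest cells, stood apart from the other mice in its resident macrophages. The tests that rest on those cells are also given without it, except where stated.

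On GRCm38, 6 of the 9 genes sit within 197 kb of chromosome 17: H2-DMa at chr17:34119541-34139101, H2-DMb2 at chr17:34143307-34151555, H2-DMb1 at chr17:34153072-34160230, H2-Ab1 at chr17:34257689-34269419, H2-Aa at chr17:34282744-34287823 on the minus strand and H2-Eb1 at chr17:34305867-34316674. H2-DMb2 ends 1517 bases before H2-DMb1 starts. Ciita (chr16:10480059-10528418) and Cd86 (chr16:36603869-36666081, minus strand) are both on chromosome 16, and Cd74 lies apart from both groups.

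Class II promoters are known for a shared module, an X box bound by RFX factors and a Y box bound by NF-Y, on which Ciita is recruited. The letters of the Y box (TGATTGG) and of a stretch within the X box (AAC, any base, then GATGATG, chosen after the sequences were seen) were searched on both strands of RefSeq promoters, from 250 bases before to 50 bases after each start site on GRCm38.p6. The search covered 6 promoters of 5 members. The stretches below are shown because they are the member promoters that hold the Y box letters, 50 to 92 bases before the start site. The letters found are in capitals. Each is written 5′ to 3′ on the strand of its gene.
H2-Aa, chr17:34287854-34287933, minus strand: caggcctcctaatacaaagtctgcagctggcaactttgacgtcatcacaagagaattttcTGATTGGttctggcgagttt
H2-Eb1, chr17:34305746-34305825, plus strand: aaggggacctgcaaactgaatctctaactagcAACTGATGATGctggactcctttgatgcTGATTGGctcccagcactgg
H2-DMb1, chr17:34153068-34153147, plus strand: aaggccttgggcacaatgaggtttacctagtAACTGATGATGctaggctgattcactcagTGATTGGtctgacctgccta
H2-DMb2, chr17:34145097-34145176, plus strand: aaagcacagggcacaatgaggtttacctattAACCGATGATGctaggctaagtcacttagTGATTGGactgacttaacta

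The Y box letters were in these 4 genes' promoters and in 7.82% of all 32851 RefSeq promoters (2568). The X stretch was in H2-Eb1, H2-DMb1 and H2-DMb2, 17 or 18 bases ahead of the Y box and not overlapping it, and in 20 of all promoters (0.0609%). Neither was found in the windows at the 2 start sites of H2-DMa. As the X stretch was chosen after these sequences were seen, its match in them was set in advance. Its share of all promoters therefore does not measure how unusual the match is. Where the stretch was not found, as in H2-Aa, other forms of the X box were not searched. The promoter of Cd74 was not searched here, and H2-Ab1, Ciita and Cd86 had no entry to search. A match of letters is a description of the window and was not tested as a binding site.

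The summed level of the structural genes and Cd74 was highest in dendritic cells. Added together, H2-Aa, H2-Ab1, H2-Eb1 and Cd74 took a median of 57193 CPM in cDC2 (9 mice), the dendritic cells specialised in presentation to CD4+ T cells, and 47599 CPM in cDC1 (4 mice), those specialised in cross-presentation. Ccr2+ inflammatory macrophages followed at 27691 CPM (5 mice) and B cells at 23896 CPM (9 mice). The Ccr2+ inflammatory median rests on mice with few such cells. In mice 7 and 9, which held most of them, Cd74 was 11997 and 8560 CPM and H2-Aa 4312 and 3454 CPM. In mice 2, 6 and 10, with 12, 10 and 20 cells, Cd74 was 17546, 13541 and 13049 CPM. H2-Aa was 6685, 5607 and 5580 CPM in these. The medians of the remaining macrophages were lower, at 9540 CPM in Res-Txniphi (10 mice), 8948 CPM in IEG+ (9 mice), 5770 CPM in Res-MGL1hi (7 mice) and 4665 CPM in Res-S100hi (6 mice).

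T cells, which should not make class II in the mouse, were at 388 CPM (10 mice) and gd T cells at 229 CPM. These give the level that free RNA or attached cells can leave. ILC2 were at 358 CPM. Neighbours in the order were not all apart. The ranges of cDC2 (38994 to 59455 CPM) and cDC1 (45918 to 49966 CPM) overlapped, as did those of Ccr2+ inflammatory macrophages (17777 to 35953 CPM) and B cells (18460 to 28356 CPM). The lowest cDC2 value was above the highest value among B cells and Ccr2+ inflammatory macrophages. Res-Txniphi ranged from 6440 to 46727 CPM, so that its highest mouse, Jak2WT mouse 4, lay within the cDC2 range. Without that mouse its median was 9326 CPM and its highest value 27322 CPM, still within the range of B cells. IEG+ macrophages (4135 to 21982 CPM) also overlapped B cells and Ccr2+ inflammatory macrophages.

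**Figure D1:**
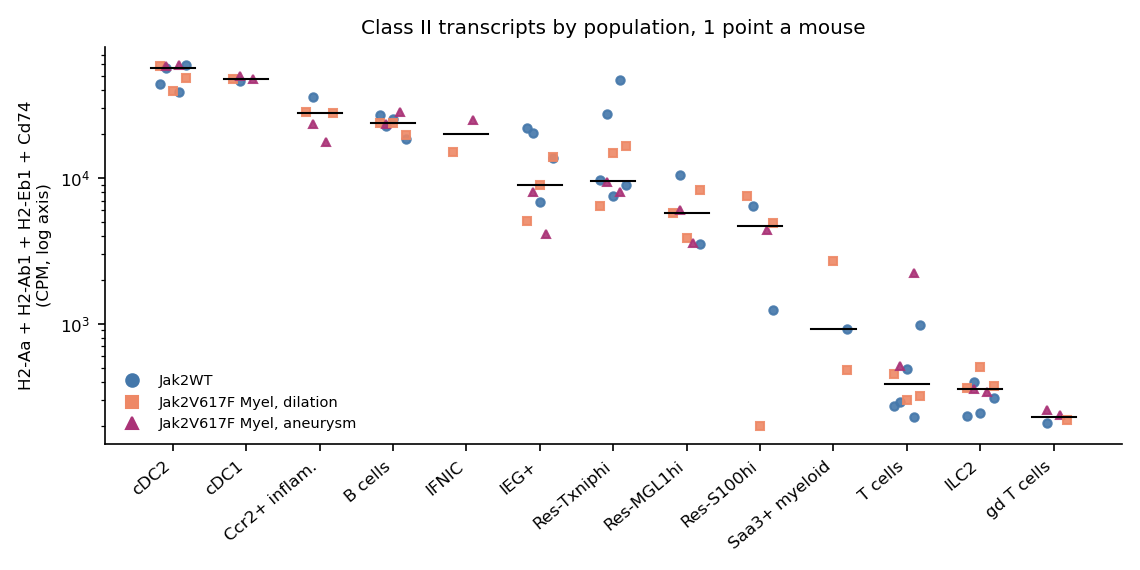
Summed CPM of H2-Aa, H2-Ab1, H2-Eb1 and Cd74 on a log axis for each population with at least 10 cells a mouse; each point is 1 mouse, coloured and shaped by group, and the black bar is the median of the mice. cDC2 and cDC1 sit near the top at 38994 CPM and above, T cells, ILC2 and gd T cells have low medians, at 388 CPM and below, and the resident subsets spread widely between mice.

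The populations also differed in how much mice varied. Across mice, the coefficient of variation (CV, the SD as a percentage of the mean) of the summed level was 3.48% in cDC1, 13.5% in B cells and 16.8% in cDC2. In resident macrophages it was 99.6% and in IEG+ macrophages 56.6%, with a highest mouse 9.21 and 5.32 times the lowest. The IEG+ value did not include Jak2WT mouse 4, and without that mouse the CV of the summed level in resident macrophages was 38.02%, with a highest mouse 2.99 times the lowest.

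Each structural gene was highest in dendritic cells and lower in the resident and IEG+ macrophages, while neighbours in the order changed places between genes. H2-Aa, the I-A alpha chain, had a median of 11045 CPM in cDC1, 10997 CPM in cDC2, 5580 CPM in Ccr2+ inflammatory macrophages and 5025 CPM in B cells, against 1800 CPM in Res-Txniphi, 1575 CPM in IEG+ and 1014 CPM in Res-MGL1hi. H2-Ab1, its beta chain partner, had a median of 10345 CPM in cDC2 and 809 CPM in Res-MGL1hi. H2-Eb1, the I-E beta chain, had 8567 CPM in cDC2 and 841 CPM in Res-MGL1hi. In IEG+ cells both were above Res-Txniphi, at 1420 against 1296 CPM for H2-Ab1 and 1609 against 1376 CPM for H2-Eb1. Cd74 had 25876 CPM in cDC2, 12448 CPM in B cells and 2857 CPM in Res-MGL1hi. Medians of Res-S100hi are not given gene by gene here. Its H2-Ab1 ranged from 35.7 to 1120 CPM between mice, so Res-MGL1hi need not be the lowest population.

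The peptide editor H2-DM did not follow 1 order for all its chains. H2-DMa had a median of 1151 CPM in cDC1 and 918 CPM in cDC2, and 369 CPM in B cells, 283 CPM in Ccr2+ inflammatory and 280 CPM in Res-Txniphi macrophages. H2-DMb1 had 909 CPM in cDC1, 711 CPM in cDC2 and 295 CPM in Ccr2+ inflammatory macrophages, but only 98.4 CPM in B cells, which was below the 132 CPM of Res-Txniphi. H2-DMb2 was the reverse, at 523 CPM in B cells, 198 CPM in cDC2, 47.6 CPM in cDC1 and a median of at most 7.97 CPM in Ccr2+ inflammatory, Res-MGL1hi, IEG+ and Res-Txniphi macrophages.

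Taken as a share of the UMIs of both beta chain genes, H2-DMb2 made up a median of 84.2% in B cells (79.6% to 93.3% over 9 mice). It made up 20.6% in cDC2 (12.2% to 29.6%, 9 mice), 4.85% in cDC1 (3.59% to 7.14%, 4 mice), and 2% in Ccr2+ inflammatory (0% to 15.9%, 5 mice) and 2.97% in resident macrophages (0% to 16.1%, 10 mice). The lowest B cell mouse was thus above the highest mouse of every other population named, and the ranges of cDC2 and cDC1 did not overlap. The genes are near copies, so that their counts are uncertain where a read fits both. Of all windows of 50 bases along the longest transcript, 27.2% of H2-DMb1 and 25.2% of H2-DMb2 were found in the other gene, but in the last 500 bases, where 3′ libraries take most reads, 20.4% of H2-DMb1 and 0% of H2-DMb2 windows were shared.

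**Figure D2:**
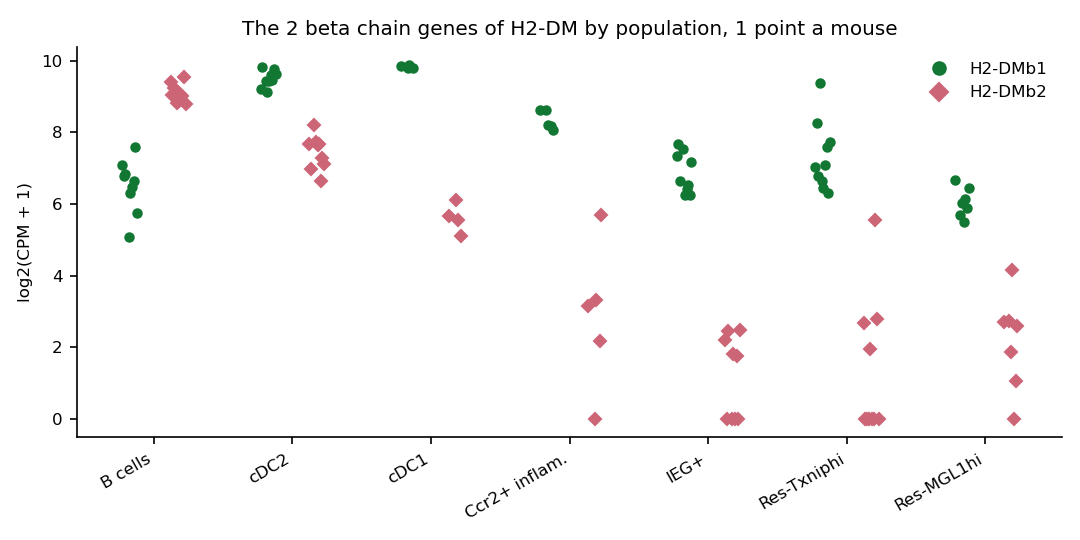
H2-DMb1 (circles) and H2-DMb2 (diamonds) as log2(CPM + 1) in each population with at least 10 cells a mouse, 1 point a mouse. H2-DMb2 is the higher of the pair in B cells, at a median of 523 CPM, and the lower in each dendritic cell and macrophage population shown.

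Ciita, the coactivator, is a low-level transcript. Its median was 117 CPM in cDC2, 111 CPM in B cells and 109 CPM in cDC1, against 36.3 CPM in Ccr2+ inflammatory, 28.7 CPM in IEG+, 23.3 CPM in Res-Txniphi and 13.3 CPM in Res-MGL1hi macrophages. In mice 7 and 9, with most of the Ccr2+ inflammatory cells, that level was 25.7 and 22.2 CPM. In mice 2, 6 and 10 it was 127, 81.0 and 36.3 CPM. The share of cells with a Ciita UMI was 69% of cDC2, 78% of cDC1 and 37.9% of B cells, but their median depths were 15289, 18138 and 5388 UMIs a cell. With each cell thinned to 2000 UMIs the shares were 19.4% in cDC2, 20.02% in cDC1 and 16.5% in B cells, close to each other. The same thinning gave 6.12% in Res-Txniphi, 6.27% in IEG+, 5.51% in Ccr2+ inflammatory and 2.65% in Res-MGL1hi macrophages, above the 0.0910% in T cells (0.489% unthinned, median depth 6291 UMIs).

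Cd86 had a different order among dendritic cells, B cells and macrophages. Its median was highest in macrophages, at 415 CPM in Res-Txniphi, 364 CPM in IEG+, 327 CPM in Ccr2+ inflammatory and 263 CPM in Res-MGL1hi, and lower in B cells (179 CPM), cDC1 (163 CPM) and cDC2 (133 CPM). In mice 7 and 9, with most of the Ccr2+ inflammatory cells, those cells had 226 and 192 CPM. In mice 2, 6 and 10 they had 375, 364 and 327 CPM. At 2000 UMIs a cell, 53.0% of Res-Txniphi and 48.5% of IEG+ cells had a Cd86 UMI, against 25.7% of cDC1, 24.5% of cDC2 and 2.18% of T cells (6.35% unthinned). Res-MGL1hi lay between at 40.6%.

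Over the 17 populations, the transcripts whose mean log level was most like that of the 4 summed genes included, after those genes, 3 more members: Pearson's r was 0.955 for H2-DMa (rank 6), 0.954 for Ciita (rank 7) and 0.940 for H2-DMb1 (rank 9). Cd86, with r = 0.841, ranked 30 and H2-DMb2, with r = 0.660, ranked 279. Outside the members the closest were Kmo (r = 0.959, rank 5), which encodes an enzyme of tryptophan breakdown, Tbc1d9 (0.941, rank 8), Cd180 (0.927), a Toll-like receptor relative, Fgd2 (0.917) and Rnase6 (0.906). Cd83, which slows the turnover of surface class II, had r = 0.896. These values describe 17 populations that share libraries and mice.

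Surface IAIE, like the summed transcripts, was highest in cDC2, but in mean counts per cell other populations changed places. By that mean, Ccr2+ inflammatory macrophages were above cDC1, IEG+ macrophages above B cells and Res-MGL1hi above Res-Txniphi. Over mice, the median of the mean was 765 counts per cell in cDC2, 507 in Ccr2+ inflammatory macrophages and 386 in cDC1. It was 355 in IEG+ macrophages and 302 in B cells. Resident macrophages had 176, with 226 in Res-MGL1hi, 170 in Res-Txniphi and 87.9 in Res-S100hi cells, and T cells had 10.0. The mean hid a wide spread within resident macrophages: 10% of the pooled cells had 6 counts or fewer, the median cell had 37 and 10% had 691.8 or more, against 124.8, 596 and 1639 in cDC2 and 1, 5 and 15.7 in T cells. In the median pooled cell the pairs named above kept the transcript order. The counts were 120 in Ccr2+ inflammatory macrophages and 319 in cDC1, and 100 in IEG+ macrophages and 201 in B cells. Res-MGL1hi had 38 and Res-Txniphi 64. Of the isotype control antibodies, Rat_IgG1 had a median of 0.371 counts per cell in resident macrophages and 0.184 in cDC2. Levels of the other isotype controls are not given here.

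Within mice, IAIE was higher in cDC2 than in resident macrophages in 8 of 9 mice, by 1.80 on the log2 scale (SE 0.27, adjusted p = 0.0188). This and the other tests between populations were two-sided exact permutation tests, flipping the sign of each mouse's difference in log2(counts per cell), adjusted by Benjamini-Hochberg over 12 comparisons. The exception was Jak2WT mouse 4, whose resident macrophages had 615 counts per cell and its cDC2 609. Taken as resident macrophages minus cDC2, the difference was -1.80 with this mouse and -2.03 without it (exact permutation test, adjusted p = 0.0188 in each case). IAIE was lower in resident than in IEG+ macrophages in 9 of 9 mice (log2 difference -0.79, SE 0.19, exact permutation test, adjusted p = 0.0188). This call was lost with the listed genes kept in the clustering (-0.61, exact permutation test, adjusted p = 0.0833). It was higher in cDC2 than in B cells in 8 of 8 mice (log2 difference 1.42, SE 0.15, exact permutation test, adjusted p = 0.0188).

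CD86 protein was a macrophage feature like its transcript, and more so. The antibody had a median of 40.04 counts per cell in Res-MGL1hi, 34.8 in IEG+, 28.2 in Res-Txniphi and 17.6 in Ccr2+ inflammatory macrophages, against 6.86 in cDC2, 5.40 in cDC1, 2.5999 in T cells and 1.37 in B cells. It was higher in resident macrophages than in cDC2 in 9 of 9 mice, by 2.32 on the log2 scale (SE 0.30, exact permutation test, adjusted p = 0.0188) and 2.47 without Jak2WT mouse 4 (adjusted p = 0.0188), and higher in cDC2 than in B cells in 8 of 8 (log2 difference 2.01, SE 0.35, exact permutation test, adjusted p = 0.0188). B cells, whose median Cd86 transcript level was above that of cDC2, thus had the lowest CD86 antibody mean of these populations. Their order against T cells was not tested, and the median pooled cell had 1 count in both. The difference between cDC2 and B cells was 0.61 for CD86 and 0.02 for IAIE as shares of all antibody counts in a cell population, and 0.77 and 0.17 relative to isotype controls, and neither passed the test on either scale. For CD86 it was 0.94 with the listed genes kept in the clustering, and no longer passed (exact permutation test, adjusted p = 0.0833).

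For 4 of the 12 pairs the number of mice could not bring p under the threshold. Against Ccr2+ inflammatory macrophages (5 mice, smallest possible exact permutation p = 0.0625), resident macrophages had less IAIE in 5 of 5 mice (log2 difference -1.37, SE 0.11) and more CD86 in 5 of 5 (log2 difference 0.93, SE 0.19). Against cDC1 (4 mice, smallest possible exact permutation p = 0.125), cDC2 had more IAIE in 4 of 4 mice (log2 difference 0.98, SE 0.22), while CD86 differed by -0.04 (SE 0.34). The direction of CD86 between resident and Ccr2+ inflammatory cells and of IAIE between cDC2 and cDC1 turned when counts were taken relative to the isotype controls.

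**Figure D3:**
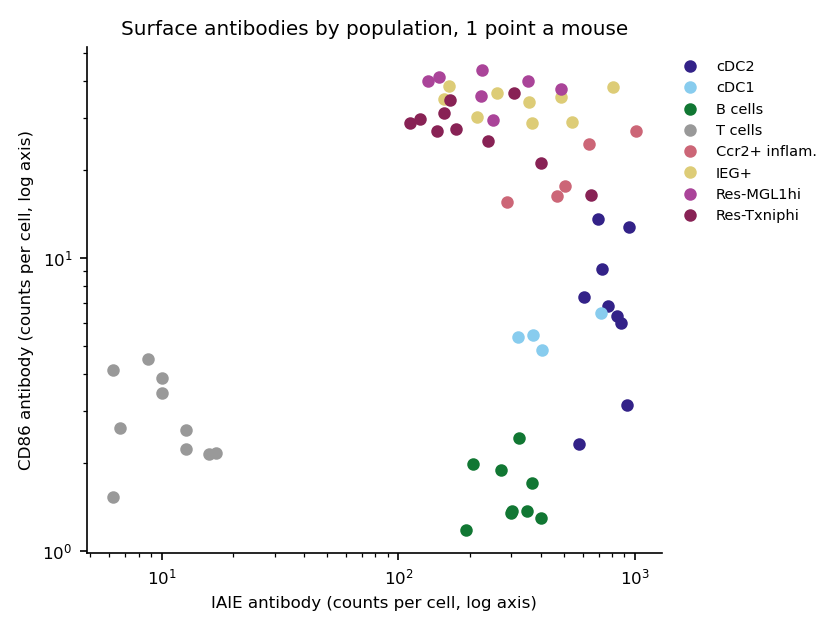
Surface IAIE (horizontal axis) against surface CD86 (vertical axis), both in mean antibody counts per cell on log axes, 1 point for each mouse and population with at least 10 cells. cDC2 lie at high IAIE with CD86 between 2.32 and 13.6 counts per cell, B cells at 1.17 to 2.42 counts of CD86, and macrophages at high CD86 over a wide range of IAIE.

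Class II transcripts were lower in Res-MGL1hi than in Res-Txniphi cells. In each of the 7 mice with both subsets, Res-MGL1hi had less H2-Aa than Res-Txniphi, with medians of 1014 and 1613 CPM in these mice. H2-Ab1, H2-Eb1, Cd74, H2-DMa, H2-DMb1 and Cd86 were also lower in Res-MGL1hi in 7 of 7 mice, and Ciita in 5 of 7. H2-DMb2, at medians of 5.04 and 0 CPM, was higher in Res-MGL1hi in 5 of 7. The share of all genes ordered alike in these mice is not given here. At the surface, mean IAIE per cell was higher in Res-MGL1hi in 6 of 7 mice (log2 difference 0.29, SE 0.09, exact permutation test, adjusted p = 0.0625), as was CD86 (0.38, SE 0.14, adjusted p = 0.0804). Neither passed the threshold, and as a share of all antibody counts the differences were -0.51 for IAIE and -0.42 for CD86, so that the direction at the surface depended on the scale. For IAIE it also depended on the measure, as the median pooled cell had 38 counts in Res-MGL1hi and 64 in Res-Txniphi. The median cell had less IAIE in Res-MGL1hi in mice 2, 7, 8 and 10, and more in mice 5, 6 and 9. Res-MGL1hi cells had a median of 11784 UMIs and Res-Txniphi cells 8559 UMIs.

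For most members, IEG+ macrophages stood above the resident macrophages in most mice. H2-DMb1 was higher in IEG+ cells in 9 of 9 mice, Cd74, Ciita and Cd86 in 8 of 9, and H2-Aa, H2-Ab1 and H2-Eb1 in 7 of 9. H2-DMa was higher in 6 of 9, at medians of 182 CPM in IEG+ and 185 CPM in resident macrophages. H2-DMb2 went the other way, higher in resident macrophages in 6 of 9, at medians of 2.39 CPM in IEG+ and 2.91 CPM in resident macrophages. The share of all genes ordered alike in these mice is not given here.

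In resident macrophages, the mice fell into a broad low range with 1 mouse far above it. H2-Aa in Jak2WT mice 1 to 5 was 1914, 2358, 1305, 7372 and 1016 CPM, and in Jak2V617F Myel mice 6 to 10 it was 1310, 986, 991, 748 and 1816 CPM. The high value was that of Jak2WT mouse 4, and the other 4 Jak2WT mice overlapped the mutant mice. Cd74 was also highest in mouse 4, and the groups overlapped otherwise. It was 5010, 6316, 3154, 18835 and 3121 CPM in Jak2WT and 3093, 3061, 2386, 2193 and 4873 CPM in mutant mice.

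H2-Ab1 was 6411 CPM and H2-Eb1 6729 CPM in mouse 4, against at most 2013 and 2091 CPM in the other 9 mice, and the highest of those 9 was Jak2WT mouse 2 for both. Of the peptide editor, H2-DMa was 314, 274, 227, 765 and 185 CPM in Jak2WT and 146, 161, 143, 123 and 231 CPM in mutant mice. Here 4 of the 5 mutant mice were below every Jak2WT mouse, and mouse 10 was above Jak2WT mice 3 and 5. H2-DMb1 reached 524 CPM in mouse 4 and 61.0 to 141 CPM in the others.

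Ciita in resident macrophages was 32.7, 7.03, 3.44, 149 and 13.2 CPM in Jak2WT and 11.6, 18.5, 9.95, 9.67 and 19.6 CPM in mutant mice, again highest in mouse 4 and overlapping elsewhere. Cd86 was 332, 274, 451, 218 and 342 CPM in Jak2WT and 266, 277, 318, 307 and 289 CPM in mutant mice. Mouse 4, highest for 7 of the 9 members, was the lowest mouse for Cd86. H2-DMb2 was at or under 12.3 CPM in all 10 mice.

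Surface IAIE moved with the transcripts: 190, 386, 152, 615 and 155 counts per cell in Jak2WT mice and 137, 201, 162, 123 and 291 in mutant mice. The median resident cell had 632.5 counts in mouse 4 and 18 to 94.5 in the other 9 mice, so that in this mouse the greater part of the cells was high. CD86 antibody was 31.0, 34.1, 27.1, 16.4 and 30.3 counts per cell in Jak2WT and 35.5, 41.0, 37.4, 38.5 and 39.0 in mutant mice. Per cell these groups did not overlap, and mouse 4 was lowest. The same held per cell, higher in mutant mice, for 16 of the 66 antibodies tested (24.2%).

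Mouse 4 had 24 resident cells, against 36 to 121 in the others. In them, the summed markers of cDC2 were at 3.83 CPM, with Cd209a, Flt3, Dpp4 and Itgax (4 of 5) at 0, and at 5.45 to 99.7 CPM in the other mice. Of the B cell markers, Cd79a, Ms4a1 and Ebf1 were at 0 in this mouse. The cDC1 markers summed to 134 CPM (64.003 to 114 CPM elsewhere), with Xcr1 and Cadm1 at 0. Markers of the Ccr2+ inflammatory macrophages summed to 260 CPM, with 1 of 4 at 0, against 34.4 to 155 CPM elsewhere, and those of interferon-inducible cells to 115 CPM against 24.1 to 80.004 CPM. Their part in the class II level of this mouse was not tested. In its cDC2, H2-Aa was 7628 CPM, within the 7062 to 11896 CPM of the other mice, and its T cells had the lowest summed class II level of the 10 mice, at 231 CPM.

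**Figure D4:**
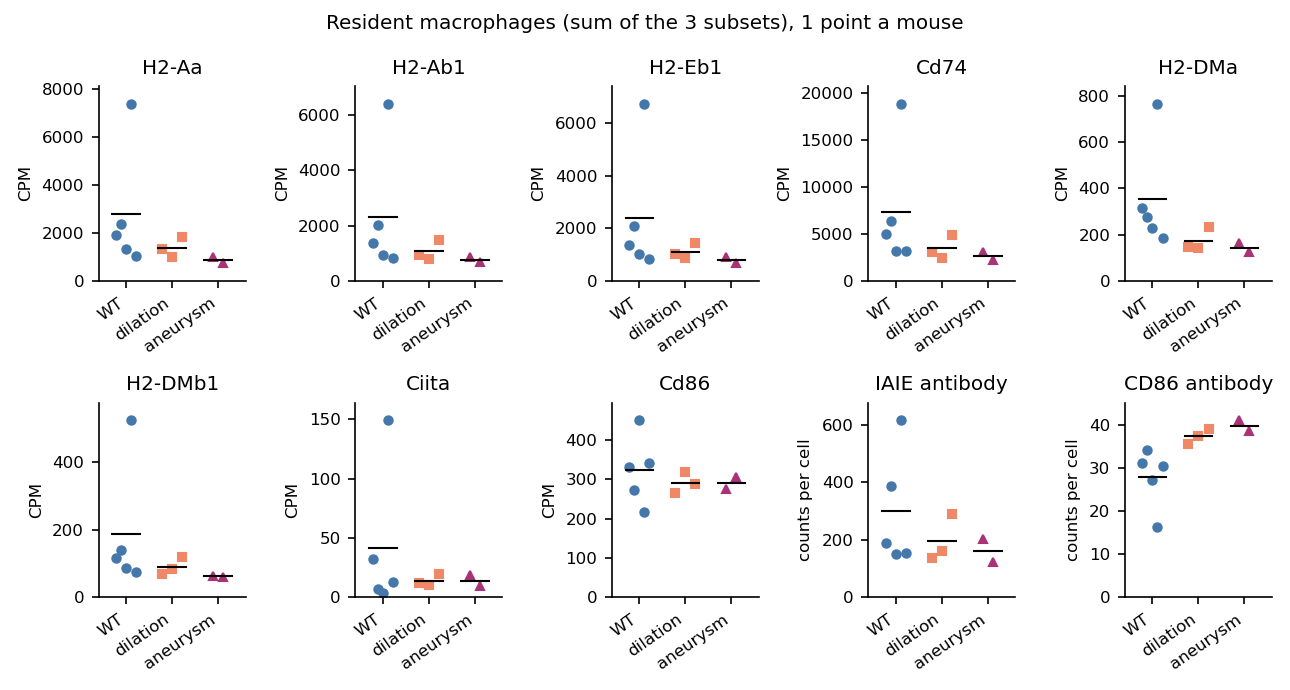
Levels in resident macrophages (the 3 subsets summed), 1 point a mouse, for 8 transcripts in CPM and the antibodies IAIE and CD86 in counts per cell; every axis starts at 0, and the bar is the mean of the group. Jak2WT mouse 4 is the highest point of every panel except Cd86 and CD86 antibody, where it is the lowest; the higher CD86 antibody of the mutant mice holds per cell and turns on the scale of the main test.

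Whether the mutation changed these genes was tested on the summed counts of each mouse with edgeR's quasi-likelihood test and Benjamini-Hochberg adjustment over all genes that passed the filter on low counts, at a threshold of 0.05. In resident macrophages 7 of the 9 members were tested (H2-DMb2 and Ciita were too low), and 0 passed, against 178 of 6585 genes (2.7%). All 7 log2 fold changes were below 0, with a median of -1.23, where the median of all genes tested was -0.02. At an unadjusted p under 0.05 there were 6 members (14.3% of all genes). DESeq2 called 0 members, against 196 of all genes.

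H2-DMa came nearest, at 161 ± 41.7 CPM (SD, n = 5) in Jak2V617F Myel and 353 ± 236 CPM (SD, n = 5) in Jak2WT mice, a log2 fold change of -1.08 (SE 0.30, edgeR adjusted p = 0.0632). H2-Aa was at -1.26 (SE 0.40, adjusted p = 0.114), H2-Eb1 at -1.30 (SE 0.43, adjusted p = 0.125) and Cd74 at -1.23 (SE 0.39, adjusted p = 0.106). Cd86 was at -0.13 (SE 0.14, adjusted p = 0.750). Differences in the structural genes of this size did not pass once p was adjusted over all genes tested.

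Without Jak2WT mouse 4 the median of the 7 members was -0.40 and 0 passed, with H2-Aa at -0.45 (adjusted p = 0.417), Cd74 at -0.45 (0.376), H2-DMa at -0.59 (0.114) and H2-DMb1 at -0.33 (0.5683). Leaving out another mouse gave 1 call without Jak2WT mouse 2, 2 without Jak2WT mouse 5 and 1 without mutant mouse 10. With no filter on low counts, 7 members were called, in a fit whose prior degrees of freedom rose from 10.4 to 516. These set how far each gene borrows its variance from the others. Over all genes, leaving out a mouse gave 58 to 264 calls and the other settings gave 0 to 453. The share of all genes called in each of these fits is not given here, so the member calls are not set against it.

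The makeup of the resident macrophages moved with genotype. Res-Txniphi, the subset with more class II transcript, made up 71.7%, 28.9%, 77.8%, 58.3% and 56.8% of resident cells in Jak2WT mice and 24.6%, 23.0%, 23.2%, 14.5% and 28.9% in mutant mice. Mutant mice lay at or below the lowest Jak2WT mouse. Res-MGL1hi made up 11.1% to 42.1% in Jak2WT and 50.8% to 66.4% in mutant mice. Within Res-Txniphi cells alone, a comparison chosen after the data were seen, the median of the 7 tested members was -0.87, 6 were below 0, H2-Aa was at -0.90 (edgeR adjusted p = 0.740), Cd86 was at 0.13, and 0 of 2430 genes passed. These cells of Jak2WT mouse 4 were again the highest for H2-Aa, at 8919 CPM, and without them the median was -0.23, H2-Aa was at -0.27 (adjusted p = 0.958) and 0 of 2674 genes passed.

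**Figure D5:**
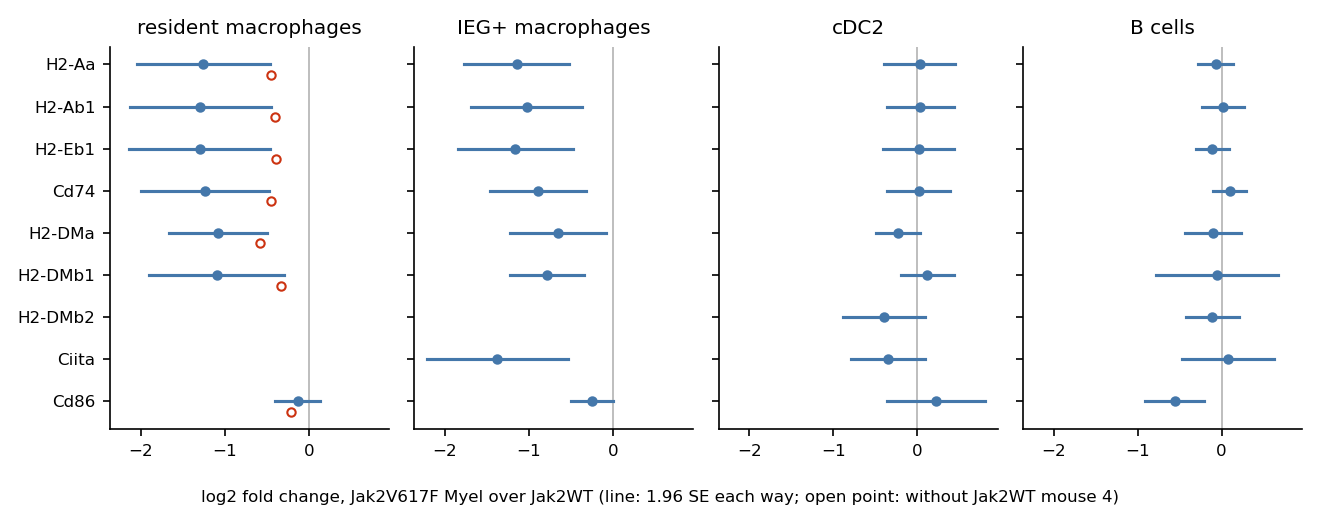
log2 fold change of each tested member, Jak2V617F Myel over Jak2WT, in resident macrophages, IEG+ macrophages, cDC2 and B cells; filled points are the fitted values with lines for the 95% interval, and open points in the resident panel are the fit without Jak2WT mouse 4. In the macrophage panels every member lies below 0, and in cDC2 and B cells the class II chains lie around 0; without mouse 4 the resident H2-Aa moves from -1.26 to -0.45.

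IEG+ macrophages gave the same direction without Jak2WT mouse 4, which had only 9 such cells and was not in the fit. H2-Aa was 4260, 4046, 1414 and 2724 CPM in Jak2WT mice 1, 2, 3 and 5 and 914, 1395, 1575, 673 and 2628 CPM in mutant mice. Jak2WT mice 1, 2 and 5 were above all mutant mice, and mouse 3 was inside their range. Ciita, low as it was, had 104, 63.2, 15.9 and 39.3 CPM in Jak2WT and 10.1, 19.4, 31.1, 10.7 and 28.7 CPM in mutant mice, with the same mice above.

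All 8 members tested were below 0 in IEG+ cells, with a median of -0.96, and 0 passed edgeR's test, where 2 of 4988 genes did (0.0401%). At an unadjusted p under 0.05 there were 7 members (8.76% of all genes), and DESeq2 called 0 members, against 7 of all genes. H2-Aa was at -1.15 (SE 0.32, edgeR adjusted p = 0.198), Ciita at -1.38 (SE 0.43, adjusted p = 0.252), H2-DMb1 at -0.78 (SE 0.22, adjusted p = 0.223) and Cd86 at -0.25 (SE 0.13, adjusted p = 0.612). With no filter on low counts 7 were called, where settings other than leaving out a mouse gave 2 to 113 calls over all genes. How many of all genes were called in that same fit is not given here.

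In cDC2 the class II chains had nearly equal means in the genotypes. H2-Aa was 8389, 10997, 7628 and 11612 CPM in Jak2WT mice 1, 2, 4 and 5 and 11617, 11476, 7062, 11896 and 8968 CPM in mutant mice, ranges that overlapped over most of their length. Its log2 fold change was 0.03 (95% interval -0.39 to 0.45). Over the 9 members the median was 0.02, the lowest was H2-DMb2 at -0.40 and the highest Cd86 at 0.22. None of the 9 passed edgeR's test, where 2 of 4447 genes did (0.045%). No member had an unadjusted p under 0.05 (8.12% of all genes) or a call by DESeq2, which called 27 genes.

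B cells were alike in this. H2-Aa was 6000, 4865, 5651 and 4022 CPM in Jak2WT mice 1, 2, 3 and 5 and 5052, 4657, 5025, 5675 and 4152 CPM in mutant mice (log2 fold change -0.07, 95% interval -0.28 to 0.14). H2-DMb2, the main beta chain transcript here, was 685, 523, 605 and 455 CPM in Jak2WT and 471, 524, 514, 744 and 441 CPM in mutant mice. The median of the 9 members was -0.07, and 0 of 3300 genes (0%) passed edgeR's test. At an unadjusted p under 0.05 there was 1 member (4.33% of all genes), and DESeq2 called 3 genes, none of them a member. That member was Cd86, at 290, 179, 250 and 205 CPM in Jak2WT and 116, 185, 171, 138 and 150 CPM in mutant mice (log2 fold change -0.56, SE 0.18, edgeR adjusted p = 1.00), the groups overlapping by 1 mouse on each side.

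Surface IAIE followed the transcripts by genotype. In resident macrophages it was 183 ± 67.2 counts per cell (SD, n = 5) in mutant and 300 ± 201 (SD, n = 5) in Jak2WT mice, a log2 fold change of -1.29 (SE 0.39, edgeR adjusted p = 0.0702 over 66 antibodies, of which 1.52% passed). In IEG+ macrophages it was -1.41 (SE 0.40, adjusted p = 0.124), where 0 of 62 antibodies (0%) passed and 7 had an unadjusted p under 0.05. In cDC2 it was -0.18, where 1 of 50 antibodies (2%) passed, and in B cells -0.13, where 0 of 44 (0%) passed and 2 had an unadjusted p under 0.05. Without Jak2WT mouse 4 the resident value was -0.70 (edgeR adjusted p = 0.260), and that of CD86 went from -0.14 to -0.20 (adjusted p = 0.350).

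The antibody scale mattered more than the transcript scale. The main fit scaled each mouse by TMM, a trimmed mean over antibodies, which left the median antibody of resident macrophages at -0.03. Per cell, with no scaling, that median was 0.58, and relative to isotype controls it was -0.68. IAIE stayed 1.21 to 1.37 below the median on the 4 scales, at -0.71 per cell (adjusted p = 0.116) and -2.05 relative to isotypes (adjusted p = 0.00814), where it passed. Relative to isotypes 24 of the 66 antibodies passed, against 1 in the main fit. The isotype control whose level is given above was low in these cells. How far this scale rests on few counts was not tested. The fits on scales other than the main one are not given without Jak2WT mouse 4. In the main fit IAIE was -0.70 without that mouse. CD86 in resident macrophages was -0.14 in the main fit (adjusted p = 0.670), 0.46 per cell (adjusted p = 0.0773), 0.03 on the antibody total and -0.75 relative to isotypes (adjusted p = 0.0382), and it stayed 0.07 to 0.14 below the median on all 4 scales.

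Whether IAIE differed by genotype more in resident macrophages than in cDC2 was asked of the difference of their log2 counts per cell in each mouse. That difference averaged -2.23 in mutant mice (SD 0.46, n = 5) and -1.27 in Jak2WT mice (SD 0.91, n = 4), a mutant minus Jak2WT difference of -0.96 (two-sided exact permutation test, 126 regroupings, p = 0.0714). Without Jak2WT mouse 4 the Jak2WT mean was -1.70 (SD 0.38, n = 3) and the difference -0.53 (exact permutation test, 56 regroupings, p = 0.196). For CD86 the same measure gave -0.35 (exact permutation test, p = 0.579), and -0.80 without that mouse (exact permutation test, p = 0.196). None of these passed the threshold.

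Aneurysm (mice 7 and 9) was compared with dilation (mice 6, 8 and 10) among the mutant mice, which also enter the comparisons by genotype. In resident macrophages 8 members were tested, all were below 0 with a median of -0.45, and 0 passed edgeR's test, where 3 of 7610 genes did (0.0394%). H2-Aa was 986 and 748 CPM with aneurysm and 1310, 991 and 1816 CPM with dilation, and it and H2-DMb1 were the members whose groups did not overlap. Of all genes tested, 10.3% were lower with aneurysm without overlap, in groups of 2 and 3 mice. No member had an unadjusted p under 0.05 (3.65% of all genes), and DESeq2 called 0 members, against 4 of all genes. In IEG+ macrophages all 8 were again below 0, with a median of -0.65, where 7 of 5743 genes passed (0.122%). H2-Eb1 was the 1 member with an unadjusted p under 0.05 (4.7% of all genes), at -0.94 (SE 0.44, edgeR adjusted p = 0.994). DESeq2 called 0 members, against 6 of all genes.

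In cDC2, 8 of 9 members were above 0 with aneurysm, with a median of 0.34, and 0 passed, where 8 of 5228 genes did (0.153%). Cd86 was 182 and 211 CPM with aneurysm and 86.7, 139 and 113 CPM with dilation, without overlap (log2 fold change 0.81, SE 0.29, edgeR adjusted p = 0.492). It was the 1 member with an unadjusted p under 0.05 (6.71% of all genes). H2-Ab1 and H2-Eb1 also did not overlap, where 11.6% of all genes tested were higher with aneurysm without overlap. Whether cDC2 differed in this from macrophages was not tested. The markers of mature dendritic cells in these cDC2 summed to 436 and 186 CPM with aneurysm, with 0 of 5 at 0, and to 94.2, 25.6 and 102 CPM with dilation and 31.9 to 84.0 CPM in Jak2WT mice, and their part in the difference was not tested.

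The other genes of the pathway were read from 7 lists. In resident macrophages by genotype, 1 of 8 lysosomal processing genes and 1 of 4 class II turnover genes rose, both in mutant mice, and 0 fell, where 133 of all 6585 genes tested (2.02%) rose. Ctsd, an endosomal aspartic protease, was 463, 534, 399, 452 and 436 CPM in Jak2WT and 677, 704, 518, 633 and 654 CPM in mutant mice (log2 fold change 0.49, SE 0.11, edgeR adjusted p = 0.0210), the groups overlapping at 518 and 534 CPM. Cd83 was 354, 720, 224, 463 and 392 CPM in Jak2WT and 688, 945, 697, 929 and 763 CPM in mutant mice (0.91, SE 0.20, adjusted p = 0.0213), with Jak2WT mouse 2 inside the mutant range.

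Both calls were narrow. Without Jak2WT mouse 4 they held (edgeR adjusted p = 0.0261 for Ctsd and 0.0264 for Cd83). They were lost without Jak2WT mouse 1 (adjusted p = 0.0644 for Ctsd and 0.0751 for Cd83), Jak2WT mouse 5 (0.0549 for each), mutant mouse 7 (0.0533 and 0.0564) or mutant mouse 9 (0.0532 and 0.0674), and Ctsd was lost without Jak2WT mouse 3 (0.0625). Both were lost at a finer clustering, where Cd83 was 0.34 (adjusted p = 0.482), and within Res-Txniphi cells alone, where Cd83 was 0.10 (adjusted p = 0.960) and Ctsd 0.73 (adjusted p = 0.174).

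No gene passed in the remaining lists of that comparison. Of 9 genes of interferon-gamma signalling and its factors, 7 were below 0, with a median of -0.15. All 8 class I genes tested were below 0, with a median of -0.60. H2-K1 was 1705 and 2143 CPM in Jak2WT mice 1 and 4. It was at most 790 CPM in Jak2WT mice 2, 3 and 5, and at most 1129 CPM in mutant mice. B2m was 3675 and 4581 CPM in mice 1 and 4, at most 2055 CPM in mice 2, 3 and 5. In mutant mice it was at most 2731 CPM. For both genes Jak2WT mice 2, 3 and 5 lay within the mutant range. No list median is given without Jak2WT mouse 4. The median was -0.07 over 5 X and Y box factors and -0.01 over 2 costimulatory genes, and of the 3 remaining class II genes (H2-Oa, H2-Ob and H2-Eb2) none was high enough to test.

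In each of the other 6 comparisons 0 genes of the 7 lists passed edgeR's test. The nearest were Ctsl, a cathepsin that degrades Cd74, in cDC2 by genotype (log2 fold change 2.35, SE 0.42, adjusted p = 0.0529), and H2-Oa and Cd83. Ctsl was at 216 to 425 CPM in resident macrophages. Of the macrophage genes, C1qa in cDC2 was also higher in mutant mice without overlap (577 to 1348 against 113 to 353 CPM), as was Apoe. That held for 2.32% of all genes tested, while Mrc1, Csf1r and Adgre1 overlapped. The part of macrophage RNA in the Ctsl difference was not tested. H2-Oa, a chain of the inhibitor of H2-DM, was 127 and 150 CPM in cDC2 with aneurysm and 76.8, 27.1 and 31.9 CPM with dilation (1.73, SE 0.39, adjusted p = 0.131). Its partner H2-Ob was 58.6 and 81.9 against 49.6, 24.0 and 22.4 CPM (1.24, adjusted p = 0.334). Cd83 in B cells was lower in mutant mice, at 528 ± 41.1 CPM (SD, n = 5) against 797 ± 34.2 CPM (SD, n = 4), without overlap, as for 0.788% of all genes tested (-0.59, SE 0.13, adjusted p = 0.163).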

How the data were processed

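The authors counted UMIs per gene and per antibody in each barcode with Cell Ranger 6.0.2 on mm10, and deposited these counts for the gene, surface antibody and hashtag libraries (Seurat 3.0.0 is named in the submitters' processing notes). From the deposited counts, hashtags were called with HTODemux (quantile 0.99) in Seurat 5.3.0 under R 4.3.3, which left 5857 singlets, 2265 multiplets and 349 negatives. Multiplets were dropped, so that doublets of cells from 1 mouse remain. Cells over 10% mitochondrial counts (986) were removed, and macrophages of low RNA content (385) were set apart. Clustering used 2000 variable genes without the listed genes, 20 components and a resolution of 0.3 (0.8 for macrophages). Clusters were named from marker lists. A set of 36 B cells of high UMI number was kept out.

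Counts were summed per mouse and population (at least 10 cells) and tested with edgeR 4.0.16 (TMM, filterByExpr, quasi-likelihood test, Benjamini-Hochberg, 0.05). DESeq2 1.42.0 was an alternative. Intervals cover 95% and include the spread between mice. The procedure was tested on simulated data. Named genes were all members, and listed genes that passed or came nearest to passing. The members and lists were chosen with earlier results of these data known. The hashtags, as the labels give them, are the only link from cells to mice, and each mouse is 1 replicate. Values of 2 listed genes are not reported here.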

Additional observations from a re-analysis of the deposited data

Results flagged for a closer look

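In groups of 4 or 5 mice, 9 of 88 member levels had a highest or lowest mouse whose gap to the next was above Dixon's 95% limit, where chance flags about 1 in 20. Of these, 7 were the resident macrophages of Jak2WT mouse 4: H2-Aa at 7372 CPM, H2-Ab1 at 6411 CPM, H2-Eb1 at 6729 CPM, Cd74 at 18835 CPM, H2-DMa at 765 CPM, H2-DMb1 at 524 CPM and Ciita at 149 CPM, all from the same 24 cells. The other two were H2-DMb1 in IEG+ macrophages of mutant mouse 10, at 142 CPM, and H2-DMb2 in B cells of mutant mouse 9, at 744 CPM from 12 cells.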

How the results depend on the processing

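Of 652 transcript fold changes under other settings, 612 kept their direction and their side of the threshold, 17 newly passed and 23 turned. With no filter on low counts, members called went from 0 to 7 in resident macrophages and 7 in IEG+ macrophages by genotype, and to 1 and 3 by aneurysm, in fits with 15206 genes and a prior of 516 degrees of freedom in the first. These counts are not set against the share of all genes called in the same fits. The turned values were small. In cDC2 by genotype, Cd74 was -0.0028 without cells that carried markers of 2 lineages. In B cells by genotype, H2-Ab1 was -0.0655 with no filter, -0.14 with mice of at least 1 cell and -0.11 with MULTIseqDemux in place of HTODemux, Ciita was -0.17 with at least 1 cell, -0.13 with MULTIseqDemux and -0.0518 without 2-lineage cells, H2-DMb1 was 0.0429 in a fit of 3 groups, Cd74 was -0.0043 with MULTIseqDemux, and H2-DMa was 0.0251 without 2-lineage cells. By aneurysm in resident macrophages, Ciita was 0.0140 with DESeq2 and 0.0311 at a mitochondrial limit of 5%, and Cd86 was 0.0029 with DESeq2, 0.0027 with RLE, 0.0360 at the 5% limit and 0.0102 without 2-lineage cells. In IEG+ macrophages Cd86 was 0.0184 with MULTIseqDemux, and in cDC2 H2-DMa was 0.0465 with no filter, 0.0033 in a fit of the 5 mutant mice and 0.0053 with MULTIseqDemux. By genotype in Res-Txniphi cells alone, Cd86 was 0.13, and without Jak2WT mouse 4 it was 0.0527 and H2-DMb1 0.0622. The causes were not tested.

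Antibodies by genotype depended on scale. CD86 in resident macrophages was 0.0326 on the antibody total, 0.46 per cell and -0.75 relative to isotypes, where IAIE was -2.05. Both passed on that last scale, among 24 of 66 antibodies. CD86 in IEG+ macrophages was 0.0540 per cell, IAIE in cDC2 was 0.0178 on the total and 0.21 per cell, and CD86 in B cells was -0.89 relative to isotypes. Between populations, the share of the antibody total gave -0.51 for IAIE and -0.42 for CD86 in Res-MGL1hi against Res-Txniphi, -0.13 for CD86 in resident against IEG+ macrophages, and 0.0222 for IAIE and 0.61 for CD86 in cDC2 against B cells. Relative to isotypes these were -0.60, -0.51 (past the threshold, exact permutation test, adjusted p = 0.0469), -0.27, 0.17 and 0.77, CD86 in resident against Ccr2+ inflammatory macrophages was -0.53, and IAIE in cDC2 against cDC1 was -0.10. With the listed genes kept in the clustering, IAIE in Res-MGL1hi against Res-Txniphi was 0.46 and passed, while IAIE in resident against IEG+ macrophages (-0.61) and CD86 in cDC2 against B cells (0.94) no longer did.

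Leaving out 1 mouse at a time, members called in resident macrophages by genotype ranged from 0 to 2, where all genes called ranged from 58 to 264. By genotype in cDC2, H2-Aa ranged from -0.0914 to 0.17, H2-Ab1 from -0.0820 to 0.15, H2-Eb1 from -0.11 to 0.20 and Cd74 from -0.11 to 0.15. In B cells, H2-Aa ranged from -0.15 to 0.0021, H2-Ab1 from -0.0906 to 0.0962, H2-DMa from -0.19 to 0.0132, H2-DMb1 from -0.49 to 0.16 and Ciita from -0.19 to 0.34. By aneurysm, Ciita and Cd86 in resident macrophages ranged from -0.59 to 0.31 and -0.0920 to 0.0728, and H2-DMa and Ciita in cDC2 from -0.0525 to 0.0816 and -0.14 to 0.38. CD86 antibody ranged from -0.20 to 0.0298 in resident macrophages and -0.18 to 0.14 in B cells, and IAIE from -0.35 to 0.0133 in cDC2 and -0.39 to 0.0583 in B cells. Between populations CD86 ranged from -0.0089 to 0.0668 for resident against IEG+ macrophages and -0.18 to 0.29 for cDC2 against cDC1.

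Counts over all genes also moved. By genotype, settings other than leaving out a mouse gave 0 to 453 calls in resident macrophages (178 in the main fit), 2 to 113 in IEG+ macrophages (2), 0 to 77 in cDC2 (2) and 0 to 12 in B cells (0), and by aneurysm 0 to 52, 0 to 31 and 2 to 158 in resident macrophages, IEG+ macrophages and cDC2 (3, 7 and 8). Leaving out a mouse gave 58 to 264, 3 to 11, 1 to 12 and 0 to 1, and by aneurysm 0 to 3, 0 to 10 and 4 to 14. Few cells per mouse limit depth: Ciita and H2-DMb2 in resident macrophages were too low to test. No paired analysis was possible because the mice of the genotypes share no replicate numbers.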

Other observations

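Populations outside the comparisons also carried class II transcripts. Interferon-inducible macrophages (73 cells) had summed levels of H2-Aa, H2-Ab1, H2-Eb1 and Cd74 of 15001 and 24913 CPM in the 2 mice with at least 10 of them, and 30.1% of them had a Ciita UMI (9.93% at 2000 UMIs a cell). Saa3+ myeloid cells were at 481 to 2685 CPM in 3 mice. The macrophages of low RNA content ranged from 3600 to 22314 CPM over 10 mice, again highest in Jak2WT mouse 4. T cells reached 2218 CPM in mutant mouse 9, against 231 to 985 CPM in the other 9 mice.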
